A study of Mus musculus with 19 samples.

Results

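The forkhead (Fox) genes encode transcription factors that share the winged-helix DNA-binding domain, and 44 of the 24016 genes in the deposited mouse expression table are forkhead genes by symbol (Fox, 1 letter, then digits only). The 4 other symbols that begin with Fox, Foxd2os, Foxl2os, Foxred1 and Foxred2, are antisense transcripts or unrelated enzymes and were not counted. The members are described here across 5 RNA-seq libraries and 9 lists of chromatin peaks from a study of the nuclear pore protein Nup153 in mouse embryonic stem cells (ESC). RNA was measured in 3 groups: neural progenitor cells (NeuP, 2 libraries, no hairpin), ESC with a hairpin against Nup153 (shNup153 #2 and shNup153 #4, 1 library each), and ESC with the non-target hairpin shCtrl (Scramble), 1 library. The ESC are the E14 line, infected with hairpin lentivirus, selected with puromycin and cultured on irradiated embryonic fibroblasts with LIF. The NeuP were derived through embryoid bodies with Noggin in N2 medium and grown with FGF2 and EGF, and the labels name no cell line for them.

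Ring1B was profiled by ChIP in NeuP, in shNup153 #2 and #4 and in shCtrl cells, Cbx7 in shCtrl cells, and Oct4 in shNup153 #2 and shCtrl cells, with 1 library per list. Nup153 and Oct4 were also mapped by DamID in ESC without a hairpin. In DamID the protein is fused to a bacterial adenine methylase, here driven by a heat shock promoter in a viral vector, and marks GATC sites near which it comes. Each DamID list stands for 2 replicate samples. Ring1B is the catalytic subunit of Polycomb repressive complex PRC1, and Cbx7 is the PRC1 subunit that reads the Polycomb histone methylation mark and predominates in ESC. Many developmental regulator genes carry Polycomb proteins while they are silent in ESC. Forkhead proteins act at many steps of development: Foxh1 carries Smad proteins to Nodal target genes, the Foxa proteins open chromatin in endoderm, the FoxO proteins sit below insulin and Akt signalling, and Foxm1 drives mitotic genes.

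The promoter sequences below introduce the main contrasts among these genes, chosen to span the peak patterns described further on. They come from the RefSeq promoter table (GRCm38.p6, 250 bases before to 50 after each start), which held 33 windows for 28 of the 44 genes. The build differs from the mm9 coordinates of the peaks, so peaks were not placed on these letters. Each runs 5′ to 3′ on the strand of its gene, and capitals mark the CpG dinucleotides.
Foxa1 (Ring1B, Cbx7 and Nup153 DamID in ESC, chr12:57546062-57546361, - strand): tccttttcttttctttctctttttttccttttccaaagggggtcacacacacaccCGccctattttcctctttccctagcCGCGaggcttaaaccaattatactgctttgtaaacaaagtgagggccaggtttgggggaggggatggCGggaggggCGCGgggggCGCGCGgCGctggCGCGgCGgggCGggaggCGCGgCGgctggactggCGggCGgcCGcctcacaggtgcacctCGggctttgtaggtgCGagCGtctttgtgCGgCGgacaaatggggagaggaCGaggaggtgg
Foxd3 (Cbx7 and Nup153 DamID in ESC, chr4:99656049-99656348, + strand): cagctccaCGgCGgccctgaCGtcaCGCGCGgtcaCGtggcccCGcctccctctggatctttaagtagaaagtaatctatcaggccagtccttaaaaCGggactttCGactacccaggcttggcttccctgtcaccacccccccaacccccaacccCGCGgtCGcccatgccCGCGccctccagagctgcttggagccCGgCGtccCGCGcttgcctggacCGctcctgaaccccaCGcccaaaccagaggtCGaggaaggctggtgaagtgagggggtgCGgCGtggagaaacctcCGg
Foxp4 (Nup153 DamID alone, chr17:47924583-47924882, - strand): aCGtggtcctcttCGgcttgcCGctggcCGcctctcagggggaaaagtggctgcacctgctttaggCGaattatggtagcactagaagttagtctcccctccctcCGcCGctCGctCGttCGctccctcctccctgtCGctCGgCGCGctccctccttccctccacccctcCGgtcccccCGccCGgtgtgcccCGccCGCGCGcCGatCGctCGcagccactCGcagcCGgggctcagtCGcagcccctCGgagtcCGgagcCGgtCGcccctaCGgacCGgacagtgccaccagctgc
Foxr2 (Ring1B without Cbx7 in control ESC, chrX:153118538-153118837, + strand): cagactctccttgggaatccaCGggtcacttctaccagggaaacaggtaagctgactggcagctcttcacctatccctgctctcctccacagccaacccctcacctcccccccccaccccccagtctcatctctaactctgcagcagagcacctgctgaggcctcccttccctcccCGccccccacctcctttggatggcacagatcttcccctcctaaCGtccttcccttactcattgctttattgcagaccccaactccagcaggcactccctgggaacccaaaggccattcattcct
Foxk2 (in none of the lists, expressed in every library, chr11:121259737-121260036, + strand): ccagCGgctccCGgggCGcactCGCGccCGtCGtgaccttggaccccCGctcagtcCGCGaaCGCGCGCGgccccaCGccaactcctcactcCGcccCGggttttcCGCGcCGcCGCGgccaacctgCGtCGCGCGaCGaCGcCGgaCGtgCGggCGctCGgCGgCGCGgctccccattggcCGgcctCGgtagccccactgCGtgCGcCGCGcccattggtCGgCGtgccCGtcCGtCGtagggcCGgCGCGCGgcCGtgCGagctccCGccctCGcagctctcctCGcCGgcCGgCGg
Foxi1 (in none of the lists, at most 1 read in any library, chr11:34208040-34208339, - strand): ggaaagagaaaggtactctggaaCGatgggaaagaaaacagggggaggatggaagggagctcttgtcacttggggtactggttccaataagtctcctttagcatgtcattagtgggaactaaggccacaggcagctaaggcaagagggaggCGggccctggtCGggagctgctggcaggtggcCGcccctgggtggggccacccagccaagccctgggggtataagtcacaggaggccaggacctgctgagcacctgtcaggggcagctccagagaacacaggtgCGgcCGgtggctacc
The windows of Foxa1 and Foxd3, a Polycomb-marked endoderm factor and a Cbx7-marked ESC and neural crest factor, hold 26 and 25 CpG dinucleotides. The Foxd3 label leaves out Ring1B because shCtrl had no Ring1B peak within 2 kb of its start. In shNup153 #2 a Ring1B peak of 6390 bases lay over that start. The window of Foxp4, a FoxP gene with a Nup153 DamID region, holds 33. The window of Foxk2, a broadly expressed member outside all lists, holds 59, and those of Foxr2 and Foxi1 hold 3 and 6.

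The relative depths recovered from the FPKM steps lay between 24.27 and 32.16 M reads per RNA library, and all low values tested were whole reads within 0.1 read. Values are the authors' FPKM, which are scaled to transcript length and to sequencing depth, so that levels of different genes can be set side by side. The NeuP libraries carried the markers of their label: 7 of 8 neural progenitor genes rose against shCtrl (limma, Benjamini-Hochberg adjusted p under 0.05), and their summed level was 3962 and 4390 FPKM in NeuP against 110 FPKM in shCtrl. The 8 ESC markers summed to 118 and 91.5 FPKM in NeuP, most of it Sox2, and to 1557 FPKM in shCtrl. The pair of NeuP libraries stood apart from each other. The 16 Foxm1 target genes, which act in mitosis, summed to 26.4 FPKM in NeuP 1 and 693 FPKM in NeuP 2, and 4 astroglial genes to 263 FPKM in NeuP 1 and 31.9 FPKM in NeuP 2. Most of the astroglial difference was Gfap (173 FPKM in NeuP 1, 0.563 FPKM in NeuP 2), while Aldh1l1 had 6.53 and 5.16 FPKM. Nup153 itself was at 20.9 and 17.4 FPKM in shNup153 #2 and #4 against 39.4 FPKM in shCtrl (log2 change -1.01 ± 0.55 SE on the log2(FPKM + 1) scale, limma adjusted p = 0.897). The single shCtrl library gives no spread of its own, so the test borrowed the spread of the other groups.

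Most forkhead genes were low or silent in these cells. A level of at least 1 FPKM was reached by 15 members in each NeuP library, 19 in each shNup153 library and 15 in shCtrl. Over all genes that share was 46.2% and 46.6% in NeuP, 50.5% and 50.4% in shNup153 #2 and #4 and 48.7% in shCtrl. Of the 44 members, 12 reached 1 FPKM in every library, 3 (Foxe3 of the lens, Foxi2 and Foxl1) had no read in any library, and 21 stayed below 1 FPKM throughout and were not tested. The number of members with no read was 13 and 16 in NeuP, 4 and 5 in shNup153 #2 and #4 and 6 in shCtrl. Genes with no read were not counted over the whole table, so these numbers are not read as a feature of forkhead genes. In shCtrl the order of levels was led by Foxh1 at 33.3 FPKM, then Foxk2 at 18.5, Foxo3 at 15.9, Foxj3 at 15.9, Foxn2 at 13.4, Foxn3 at 13.3 and Foxm1 at 11.4 FPKM. With 1 shCtrl library, neighbours in that order cannot be separated, and Foxo3 and Foxj3 were equal to 3 digits.

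**Figure D1:**
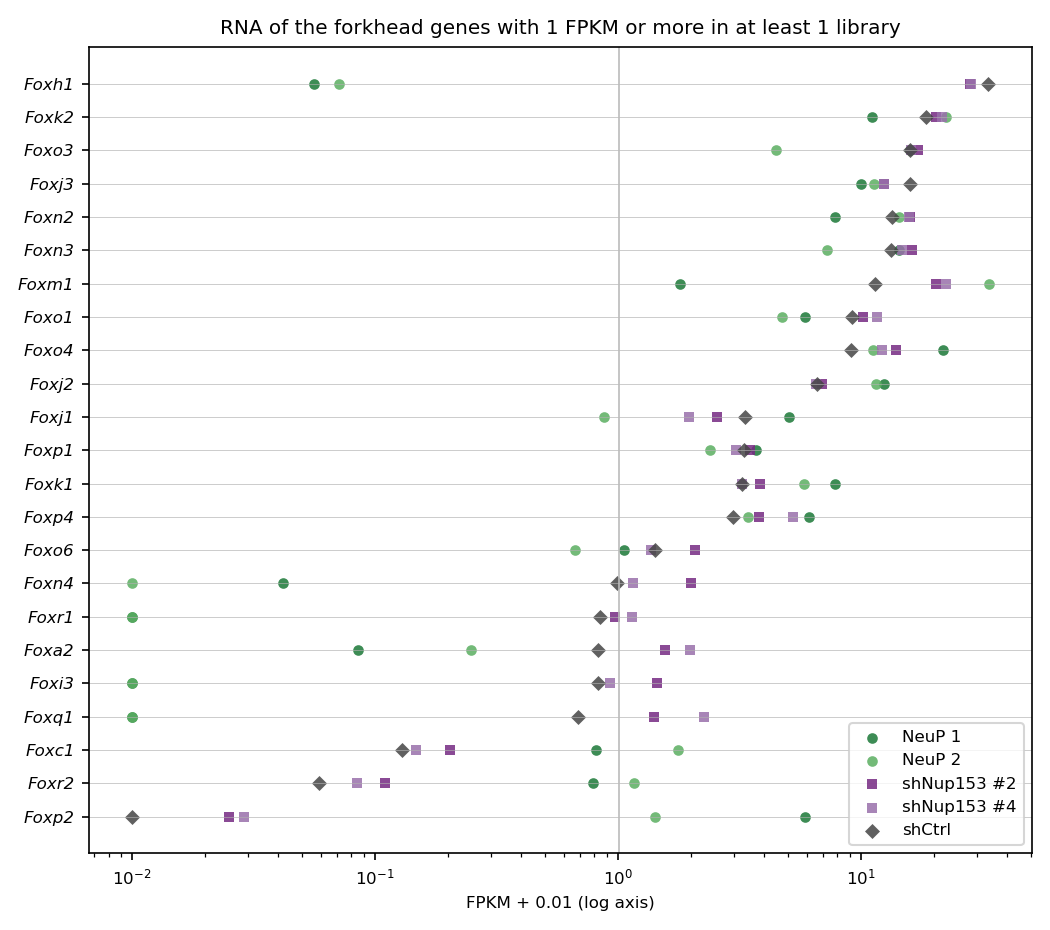
FPKM + 0.01 on a log axis for the 23 forkhead genes with at least 1 FPKM in 1 or more libraries, with 1 point per library (NeuP circles, shNup153 squares, shCtrl diamonds). Points at the left edge have no read; Foxh1 stands at 0.046 and 0.061 FPKM in NeuP against 33.3 FPKM in shCtrl, and Foxp2 shows the opposite order.

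The comparison of NeuP with shCtrl ESC asks which forkhead genes differ between the neural and the pluripotent state. Cell state, culture and hairpin infection differ together between these groups and cannot be told apart. Of the 23 members tested, 2 were higher in NeuP (8.70%), against 18.3% of all 13750 genes tested, and 3 were lower (13.0%), against 24.9% of all genes. The calls are from limma on log2(FPKM + 1) with Benjamini-Hochberg adjusted p under 0.05. The median change was -0.35 over the members and -0.26 over all genes tested, on the log2(FPKM + 1) scale, which understates the change of low genes. At an unadjusted p under 0.05 there were 12 of 23 members, against 53.7% of all genes. By library, 7 members were above shCtrl in both NeuP libraries, 9 were below it in both, and 7 were split. The same split was not counted over all genes tested, so it is not read as a feature of forkhead genes.

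Foxh1 (NM_007989, mm9 chr15:76498654-76500378, minus strand) had the largest fitted decrease on the log2(FPKM + 1) scale. It had 0.046 and 0.061 FPKM in NeuP (2 reads in each library), 28.2 and 28.4 FPKM in shNup153 #2 and #4, and 33.3 FPKM in shCtrl (1150 reads). Every ESC library was far above both NeuP libraries. The mean was 622-fold lower in NeuP, a ratio that rests on 4 NeuP reads, and the fitted log2 change was -5.03 ± 0.17 (SE, n = 2 NeuP against 1 shCtrl, limma adjusted p = 0.00238). Foxh1 and Foxr1 kept their calls under all 11 alternative settings. In these bulk libraries, fewer cells that express a gene and less RNA per cell cannot be told apart.

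Foxr1 and Foxi3, the other called decreases, had no read in either NeuP library. Foxr1 was at 0.967 and 1.14 FPKM in shNup153 #2 and #4 and 0.831 FPKM in shCtrl (35 reads). With 3 reads over both NeuP libraries as the limit, it was at least 25.9-fold lower in NeuP (log2 change -0.87 ± 0.14, limma adjusted p = 0.0169). Foxi3, which acts in ectodermal placodes, was at 1.44 and 0.914 FPKM in shNup153 #2 and #4 and 0.82 FPKM in shCtrl (25 reads), so it was at least 18.5-fold lower in NeuP (log2 change -0.86 ± 0.21, limma adjusted p = 0.0399). The Foxi3 call was lost without the filter on low values, with a pseudocount of 5 and under quantile normalization (limma adjusted p = 0.0808, 0.0803 and 0.0745).

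Foxj2 and Foxr2 rose in NeuP. Foxj2 had 12.5 and 11.5 FPKM in NeuP, 6.94 and 6.51 FPKM in shNup153 #2 and #4, and 6.61 FPKM in shCtrl, a log2 change of 0.77 ± 0.18 (limma adjusted p = 0.0380). Foxr2, an X-linked gene, had 0.777 and 1.16 FPKM in NeuP (80 and 90 reads), 0.1 and 0.074 FPKM in shNup153 #2 and #4, and 0.049 FPKM in shCtrl (4 reads), a 19.7-fold higher mean in NeuP (log2 change 0.90 ± 0.18, limma adjusted p = 0.0270). In neither gene did the NeuP and ESC libraries overlap. Both calls were lost when either hairpin library, or the whole shNup153 group, left the fit, which takes away residual degrees of freedom. Without shNup153 #2 the limma adjusted p was 0.208 for Foxj2 and 0.122 for Foxr2. Without the filter on low values Foxr2 also missed the threshold (limma adjusted p = 0.0517).

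Foxp2 and Foxc1 had both NeuP values above every ESC library without passing the test. Among the other neural and mesenchymal members, Foxn4, Foxc2 and Foxd1 had the opposite order at low levels. Foxp2, a factor of neurons in cortex and striatum, had 5.86 and 1.41 FPKM in NeuP (1195 and 217 reads), 0.015 and 0.019 FPKM in shNup153 #2 and #4 (3 reads each) and no read in shCtrl. With 3 reads as the limit in shCtrl it was at least 195-fold higher in NeuP, but its NeuP libraries differed 4.16-fold and the limma adjusted p was 0.0878 (log2 change 2.02 ± 0.69). Foxc1, a factor of cranial mesenchyme and vessels, had 0.803 and 1.76 FPKM in NeuP, 0.193 and 0.138 FPKM in shNup153 #2 and #4 and 0.119 FPKM in shCtrl, 10.8-fold higher in the NeuP mean (limma adjusted p = 0.0703). The summed level of 9 fibroblast markers was 56.7 and 114 FPKM in NeuP and 8.68 FPKM in shCtrl, with 4 of the 9 called higher and 1 lower in NeuP. Col3a1 had 24.9 and 46.1 FPKM in NeuP and 0.036 FPKM in shCtrl, and Lum was at 0 in shCtrl. The marker called lower was the fibrillar collagen Col1a2 (0.012 and 0.235 FPKM in NeuP, 1.11 FPKM in shCtrl). Without a call, Col1a1 (0.375 and 1.53 FPKM in NeuP, 1.82 FPKM in shCtrl) and Pdgfrb (0.191 and 1.56 FPKM in NeuP, 2.21 FPKM in shCtrl) were also lower. In the fit 6 of the 9 markers were above shCtrl. The part of this marker list in the Foxc1 value was not tested. Both Foxp2 and Foxc1 were called with a pseudocount of 0.1, and with voom on the recovered reads.

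Foxd3, the 3 Foxa genes, Foxq1 and Foxn4 had low levels throughout, with both NeuP values below those of all ESC libraries and no call by limma with the filter at 1 FPKM. Foxd3, which maintains ESC and neural crest, had 0.026 FPKM and no read in NeuP, 0.447 and 0.497 FPKM in shNup153 #2 and #4, and 0.349 FPKM in shCtrl (21 reads), below the filter and therefore without a test; with no filter it was called lower in NeuP (limma adjusted p = 0.0173). Foxa1 had 1 read in each NeuP library, 63 and 28 reads in shNup153 #2 and #4 and 36 reads in shCtrl. Foxa2 had 0.075 and 0.239 FPKM in NeuP, 1.55 and 1.98 FPKM in shNup153 #2 and #4, and 0.82 FPKM in shCtrl, with a fitted change of -0.66 in NeuP that missed the threshold (limma adjusted p = 0.0620). Foxa3 had no read in NeuP, 0.568 and 0.656 FPKM in shNup153 #2 and #4 and 0.271 FPKM in shCtrl, at least 10.4-fold lower in NeuP. Foxq1 and Foxn4 followed the same order: Foxq1 had no read in NeuP and 0.675 FPKM in shCtrl (limma adjusted p = 0.0753), and Foxn4, a factor of retinal and spinal progenitors, had 3 reads and no read in NeuP and 0.986 FPKM in shCtrl (limma adjusted p = 0.0506). With voom on the recovered reads both were called lower in NeuP (adjusted p = 0.00554 for Foxq1 and 0.0164 for Foxn4). Foxa3 was called lower with no filter on low values (limma adjusted p = 0.0314). Without the filter Foxe1 and Foxi1 were called lower too (limma adjusted p = 0.0103 and 0.0229). They had at most 2 reads and at most 1 read in any library, so that setting also calls genes at the read floor. Foxa1, Foxa3, Foxc2 and Foxd3 were called lower by voom on all genes with at least 10 reads in 1 library, a setting chosen after seeing the data. Foxc2 had no read and 1 read in NeuP, 18 and 11 reads in shNup153 #2 and #4 and 17 reads in shCtrl. It was also called lower in NeuP with no filter on low values.

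The 4 FoxO genes had reads in every library of both cell states. Foxo1 had 5.86 and 4.75 FPKM in NeuP, 10.2 and 11.7 FPKM in shNup153 #2 and #4, and 9.17 FPKM in shCtrl (log2 change in NeuP -0.70 ± 0.22, limma adjusted p = 0.0733). Foxo3 had 16.0 and 4.44 FPKM in NeuP and 15.9 FPKM in shCtrl, so the first NeuP library matched shCtrl and the second did not. Foxo4 had 21.7 and 11.2 FPKM in NeuP against 9.09 FPKM in shCtrl, and Foxo6 had 1.05 and 0.653 FPKM in NeuP against 1.41 FPKM in shCtrl. Foxp1 (3.69 and 2.39 FPKM in NeuP, 3.28 FPKM in shCtrl) and Foxp4 (6.13 and 3.41 FPKM in NeuP, 2.98 FPKM in shCtrl) were not called. Foxp3, the regulator of regulatory T cells, had at most 2 reads in any library. Foxk1 had 7.83 and 5.85 FPKM in NeuP against 3.23 FPKM in shCtrl (limma adjusted p = 0.0568), and Foxj3 had 10.0 and 11.4 FPKM in NeuP against 15.9 FPKM in shCtrl (limma adjusted p = 0.0953).

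Foxm1 and Foxj1 differed between the NeuP libraries. Foxm1 had 1.8 and 33.7 FPKM in NeuP (252 and 3566 reads), 20.4 and 22.3 FPKM in shNup153 #2 and #4 and 11.4 FPKM in shCtrl. Its NeuP libraries lay on either side of every ESC library, and the fitted change was -0.33 ± 1.64. The Foxm1 targets differed in the same order between the NeuP libraries, with 0 of 16 called in either direction and a median log2 change of -3.0. Their summed level of 26.4 and 693 FPKM in NeuP stood against 1233 FPKM in shCtrl. Among them Ccnb1, a mitotic cyclin, had 0.324 and 24.3 FPKM in NeuP against 44.4 FPKM in shCtrl, while Ccna2, another cyclin, had 2.86 and 123 FPKM in NeuP against 109.5 FPKM in shCtrl. Foxj1, the regulator of motile cilia, had 5.06 and 0.865 FPKM in NeuP, 2.54 and 1.95 FPKM in shNup153 #2 and #4 and 3.34 FPKM in shCtrl. Its list of motile cilium genes includes Foxj1 itself, which was tested and not called. Of the 12 genes tested, 1 rose in NeuP (Rfx3, 10.4 and 7.66 FPKM in NeuP, 0.751 FPKM in shCtrl) and 6 fell. Over all genes tested 18.3% were higher and 24.9% lower. Tekt1, a tubulin-associated protein of the axoneme, had no read in NeuP and 2.68 FPKM in shCtrl. Across the tested members 4 differed by over 2-fold between the NeuP libraries on the FPKM + 1 scale (Foxj1, Foxm1, Foxo3 and Foxp2), as did 2220 of the 13750 genes tested.

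Most genes of the Nodal pathway that Foxh1 serves also fell. Of the 14 tested genes for Foxh1 partners, Nodal pathway components and targets, 10 fell and 1 rose in NeuP (24.9% and 18.3% of all genes), with a median log2 change of -1.08 against -0.26 over all genes. Nodal, the ligand, had no read in NeuP and 9.08 FPKM in shCtrl (log2 change -3.33 ± 0.16, limma adjusted p = 0.00246). Tdgf1, the co-receptor Cripto, had 0.13 and 0.021 FPKM in NeuP against 54.3 FPKM in shCtrl. Of the Smad partners, Smad2 fell (7.66 and 9.54 FPKM in NeuP, 17.5 FPKM in shCtrl), while Smad4 had 33.4 and 30.4 FPKM in NeuP and 34.1 FPKM in shCtrl. The 1 gene that rose was Acvr2a, an activin receptor (9.07 and 11.6 FPKM in NeuP, 2.46 FPKM in shCtrl).

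In the list of genes upstream and downstream of FoxO proteins, 9 of 24 rose and 3 fell in NeuP, against 18.3% and 24.9% of all genes tested, with a median log2 change of 0.99 against -0.26. Pik3r1, the regulatory subunit of PI3 kinase, had 59.5 and 72.1 FPKM in NeuP against 2.16 FPKM in shCtrl, and the FoxO target Sesn3 had 106 and 52.0 FPKM in NeuP against 7.40 FPKM in shCtrl. Sgk1, a kinase that phosphorylates FoxO proteins, fell to 16.3 and 13.3 FPKM in NeuP against 84.0 FPKM in shCtrl. Of 13 corepressors and partners of forkhead proteins, 3 rose (Tle2, Tle4 and Ctbp1) and 2 fell (Gatad2a and Mta1), shares near those of all genes tested.

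**Figure D2:**
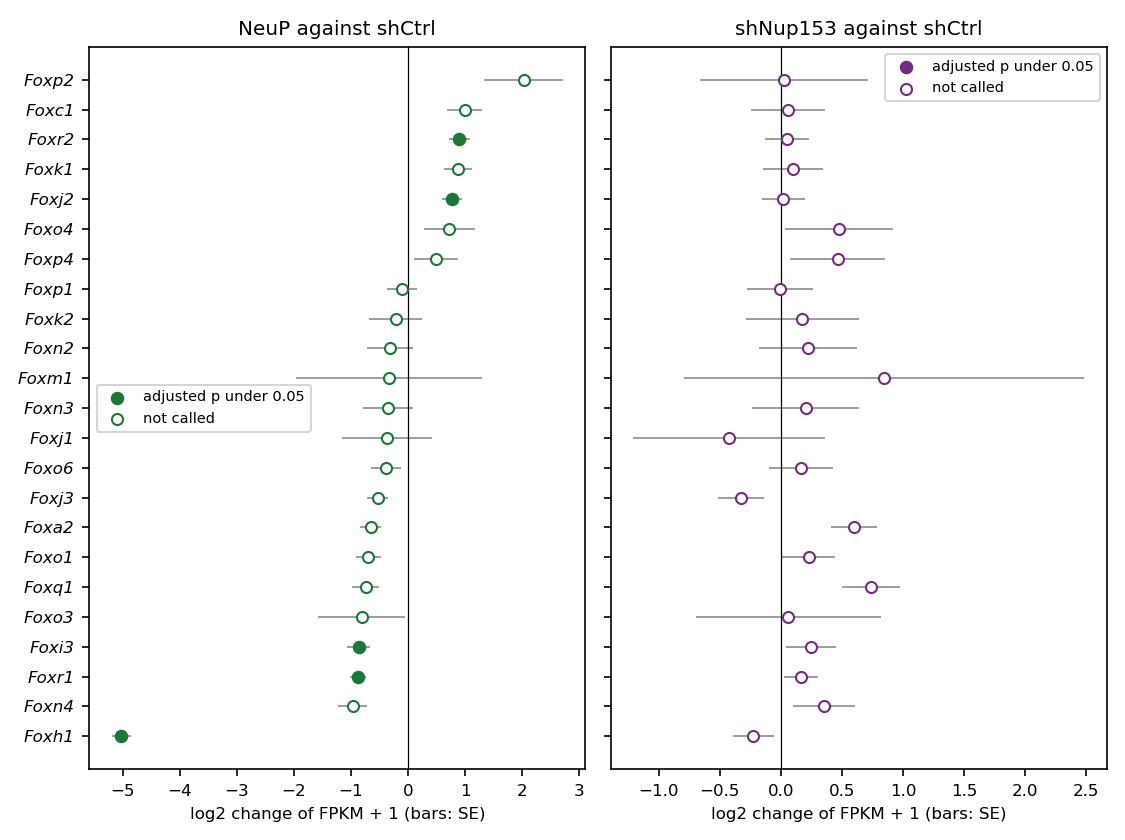
Fitted log2 change of FPKM + 1 with its SE for the 23 tested forkhead genes, NeuP against shCtrl on the left and shNup153 against shCtrl on the right, filled where the adjusted p was under 0.05. In NeuP 5 genes are filled, with Foxh1 at -5.03; in the knockdown none is filled and Foxm1 has the widest bar.

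The comparison of shNup153 with shCtrl asks whether forkhead transcripts shift when Nup153 is targeted in ESC. No member was called, and no gene of the 13750 was called either (0% in each direction, limma with Benjamini-Hochberg adjustment; voom on the recovered reads also called 0 of both). At an unadjusted p under 0.05 there were 2 members of 23, Foxa2 and Foxq1, against 5.92% of all genes. The spread in this fit includes that between the NeuP libraries, so these p-values do not measure the spread of the hairpin libraries alone. The median change was 0.16 over the members and 0.08 over all genes. The fitted value was above shCtrl for 19 of 23 members, but for 12 of 23 under quantile normalization. In both hairpin libraries 16 members lay above shCtrl, 3 lay below it (Foxh1, Foxj1 and Foxj3), and 4 were split. Neither these counts nor that of the fitted values was made over all genes, whose median also lay above shCtrl. They are therefore not read as a feature of forkhead genes. On the FPKM + 1 scale none of the 23 tested members differed by over 2-fold between the hairpin libraries, as 48 of the 13750 genes tested did.

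Foxq1, an epithelial and hair follicle factor, had 1.40 and 2.24 FPKM in shNup153 #2 and #4 (122 and 160 reads) against 0.675 FPKM in shCtrl (48 reads), a log2 change of 0.73 ± 0.24 (limma adjusted p = 0.825). Foxa2, the endoderm and floor plate factor, had 1.55 and 1.98 FPKM in shNup153 #2 and #4 (100 and 104 reads) against 0.82 FPKM in shCtrl (43 reads), a log2 change of 0.60 ± 0.19 (limma adjusted p = 0.825). In both genes each hairpin library was above shCtrl. The summed level of 8 endoderm markers was 43.0 and 61.4 FPKM in shNup153 #2 and #4 against 29.3 FPKM in shCtrl, with none of the 8 at 0 in any ESC library and the 7 tested ones all above shCtrl in the fit. Its part in the Foxa2 value was not tested. Foxa1 differed: it had 0.635 and 0.345 FPKM in shNup153 #2 and #4, on either side of 0.446 FPKM in shCtrl.

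On the log2(FPKM + 1) scale Foxm1 had the largest fitted value in the knockdown, although voom on the recovered reads gave Foxp2, Foxq1 and Foxa2 larger ones. Foxm1 had 20.4 and 22.3 FPKM in shNup153 #2 and #4 against 11.4 FPKM in shCtrl, with a log2 change of 0.85 ± 1.64. The spread in this fit includes that between the NeuP libraries. The start of Rhno1 lies 97 bp from that of Foxm1 on the other strand, and Rhno1 had 22.9 and 24.3 FPKM in shNup153 #2 and #4 against 21.1 FPKM in shCtrl. Foxo4 had 13.9 and 12.2 FPKM in shNup153 #2 and #4 against 9.09 FPKM in shCtrl, and Foxp4 had 3.81 and 5.27 FPKM in shNup153 #2 and #4 against 2.98 FPKM in shCtrl. Foxd3 had 33 and 30 reads in shNup153 #2 and #4 against 21 reads in shCtrl. Foxh1 had 28.2 and 28.4 FPKM in shNup153 #2 and #4 against 33.3 FPKM in shCtrl, a log2 change of -0.23 ± 0.17 (limma adjusted p = 0.976).

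None of the 5 pathway lists held a called gene in the knockdown. Of the Foxh1 and Nodal list, 11 of 14 fitted values were above shCtrl, with a median log2 change of 0.39 against 0.08 over all genes. Nodal had 20.0 and 19.6 FPKM in shNup153 #2 and #4 against 9.08 FPKM in shCtrl, and its relative Gdf3 had 18.3 and 18.5 FPKM in shNup153 #2 and #4 against 8.16 FPKM in shCtrl (limma adjusted p = 0.825 for both). The medians of the FoxO, Foxm1, Foxj1 and corepressor lists were 0.15, 0.14, 0.11 and 0.14.

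Polycomb peaks were more frequent at forkhead starts than over all genes of the table. A Cbx7 peak lay within 2 kb of the transcript start of 22 of 44 members (50%, Wilson 95% interval 35.8 to 64.2%) in shCtrl ESC, against 13.2% of all genes. A Ring1B peak lay there at 18 members (40.9%, interval 27.7 to 55.6%) in the same cells, against 8.1% of all genes. Both were present at 15 members, against 3.54% of all genes. The peak lists give positions without heights, and some members are neighbours on a chromosome, so no test was made on these shares and the intervals cover counting error only.

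**Figure D3:**
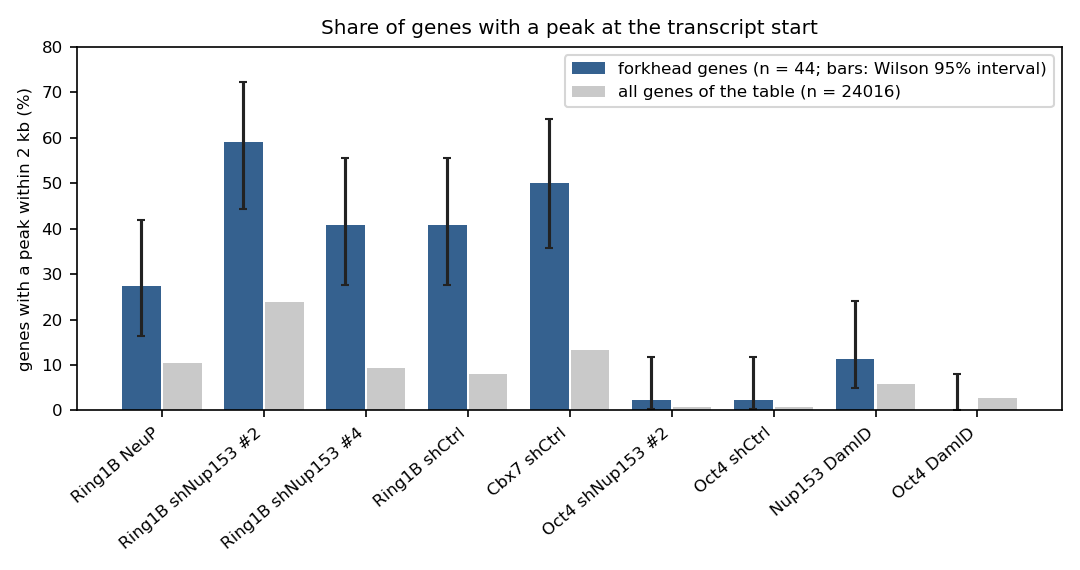
Share of genes with a peak within 2 kb of the transcript start, in percent, for each of the 9 lists: forkhead genes (n = 44, bars with Wilson 95% intervals) beside all 24016 genes of the table. The forkhead share is above the share of all genes in each Ring1B list and in the Cbx7 list, and it is 0 for Oct4 DamID.

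Cbx7 formed long domains over these genes. The Cbx7 peaks at members had a median width of 6.43 kb, and 16 of the 22 lay over the start itself. The median over the whole list was 501 bp, but that list includes peaks away from gene starts. The width of Cbx7 peaks at the starts of all genes was not measured, so the length is not read as particular to forkhead genes. The widest, 18.7 kb, covered Foxf2, a gut and lung mesenchyme factor (mm9 chr13:31705359-31724030), and the next covered Foxa1 (mm9 chr12:58634004-58652586). In shCtrl the Ring1B peaks at members were short, with a median of 0.654 kb and a longest of 3.91 kb, and 2 of 18 lay over the start. In shNup153 #2 the Ring1B peaks at members had a median of 4.95 kb and 20 of 26 lay over the start; at Foxf2 that peak was 18.5 kb long. The Cbx7 library held 22.5 M tags. The Ring1B libraries held 30.8 M tags in shNup153 #2, 9.95 M tags in shNup153 #4 and 4.99 M tags in shCtrl. The part of these differences in depth in the peak widths and counts, and in the members listed with Cbx7 alone, was not tested.

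The 15 members with both Ring1B and Cbx7 in shCtrl were developmental factors of many germ layers: Foxa1, Foxa2, Foxb1, Foxb2, Foxc1, Foxc2, Foxd1, Foxd2, Foxd4, Foxe1, Foxe3, Foxf2, Foxi3, Foxl1 and Foxl2. None reached 1 FPKM in shCtrl, where their levels ran between 0 and 0.82 FPKM. Cbx7 without Ring1B was found at 7 members, among them Foxd3, Foxf1, Foxp1 and Foxq1, of which Foxp1 alone reached 1 FPKM in shCtrl. Ring1B without Cbx7 was found at Foxh1, Foxo1 and Foxr2. Neither was found at 19 members, of which 12 reached 1 FPKM in shCtrl: Foxj1, Foxj2, Foxj3, Foxk1, Foxk2, Foxm1, Foxn2, Foxn3, Foxo3, Foxo4, Foxo6 and Foxp4.

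Few forkhead genes with a Ring1B peak were expressed. Of 18 members with a Ring1B peak in shCtrl, 2 reached 1 FPKM in that library (11.1%, Foxh1 and Foxo1), against 13 of 26 members without one (50%). Over all genes, 58.8% of 1945 genes with a Ring1B peak reached 1 FPKM in shCtrl, against 47.8% of the 22071 genes without one. No test was made of these shares.

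**Figure D4:**
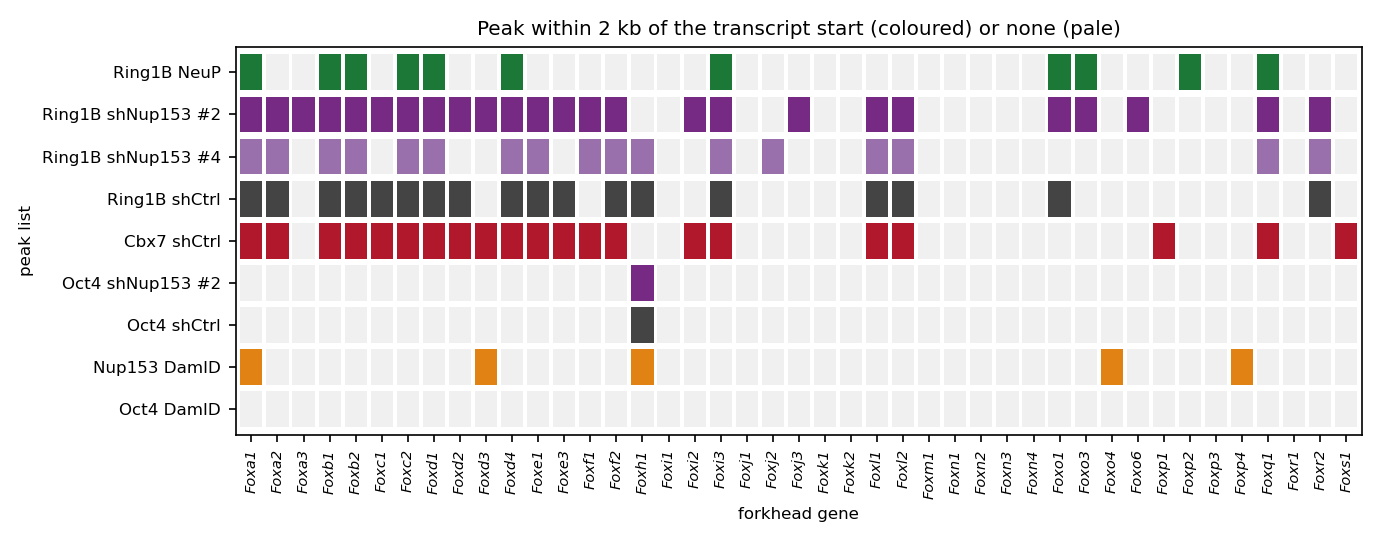
Presence (coloured) or absence (pale) of a peak within 2 kb of the transcript start for the forkhead genes (columns, 1 of the 44 not shown) in 9 peak lists (rows). The Ring1B and Cbx7 rows are filled mainly at Foxa to Foxf, Foxi and Foxl genes, the Foxk, Foxm and Foxn columns are empty, and Foxh1 alone is filled in the Oct4 ChIP rows.

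In NeuP a Ring1B peak lay at the start of 12 members (27.3%), against 10.4% of all genes. It was present in NeuP and shCtrl at 8 members (1.99% of all genes): Foxa1, Foxb1, Foxb2, Foxc2, Foxd1, Foxd4, Foxi3 and Foxo1. It was listed in NeuP and not in shCtrl at 4 members (8.45% of all genes), among them Foxo3, Foxp2 and Foxq1. It was listed in shCtrl and not in NeuP at 10 members (6.11% of all genes): Foxa2, Foxc1, Foxd2, Foxe1, Foxe3, Foxf2, Foxh1, Foxl1, Foxl2 and Foxr2. Of these 10, Foxr2 rose and Foxh1 fell in RNA, and Foxc1 had the higher but uncalled NeuP levels given above. Foxp2, which had 5.86 and 1.41 FPKM in NeuP, had its NeuP Ring1B peak 1.90 kb from the start, near the edge of the window. The nearest NeuP peaks to the starts of Foxl2 and Foxe3 lay outside the window, at 2.377 and 2.793 kb. The Ring1B library held 33.2 M tags in NeuP and 4.99 M tags in shCtrl. The part of that difference in which members were listed was not tested.

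In the knockdown a Ring1B peak lay at 26 members in shNup153 #2 (59.1%), against 24% of all genes, and at 18 in shNup153 #4 (40.9%), against 9.24% of all genes. Either hairpin list held a peak at 28 members (26.3% of all genes). Both held one at 16, against 6.91% of all genes, and all 4 Ring1B lists at 7 (Foxa1, Foxb1, Foxb2, Foxc2, Foxd1, Foxd4 and Foxi3), against 1.17%. Present in both hairpin lists and not in shCtrl were 3 members, among them Foxf1 and Foxq1, against 3.41% of all genes; all 3 had a Cbx7 peak in shCtrl. At Foxq1 the Ring1B peak was 3721 bases long in shNup153 #2 and 634 bases long in shNup153 #4, and the RNA was at 1.40 and 2.24 FPKM against 0.675 FPKM in shCtrl. Listed in shNup153 #2 and not in shCtrl were 9 members (18.4% of all genes), and listed in shNup153 #4 and not in shCtrl were 4 (5.22% of all genes). Listed in shCtrl and missing in shNup153 #2 was Foxh1 (2.49% of all genes). Missing in shNup153 #4 were Foxc1, Foxd2, Foxe3 and Foxo1 (4.07% of all genes). Some of these lay just outside the window: the nearest peak was 2.052 kb from the Foxh1 start in shNup153 #2, and 2.011 kb from Foxc1 and 2.657 kb from Foxd2 in shNup153 #4. No member was missing from both hairpin lists.

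Nup153 DamID regions lay within 2 kb of 5 members (11.4%, interval 4.95 to 24.0%), against 5.91% of all genes. They were Foxa1, Foxd3, Foxh1, Foxo4 and Foxp4. The interval includes the share of all genes. At Foxo4 the region (mm9 chrX:98448533-98451761) lay over the start, while at the others it began 0.823 kb (Foxh1), 0.876 kb (Foxp4), 1.35 kb (Foxd3) and 1.64 kb (Foxa1) away. Within 1 kb of the start 3 members remained, and with the centre of the region within 2 kb only Foxo4 did. Of the 5 genes, Foxa1 and Foxh1 also had a Ring1B peak in shCtrl (1.82% of all genes have both), and Foxa1 and Foxd3 had Cbx7. Their RNA in the knockdown is given above: Foxd3, Foxo4 and Foxp4 were above shCtrl in both hairpin libraries, Foxh1 was below it in both and Foxa1 was split, with no call. The Oct4 DamID list held none of the 44 members, against 2.8% of all genes, which allows a share of up to 8.03% by the Wilson interval.

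Foxh1 was the only member with an Oct4 ChIP peak. The peak lay in shNup153 #2 (mm9 chr15:76500199-76500373, 5 bases from the start) and in shCtrl (mm9 chr15:76500250-76500426, over the start), against 0.712% and 0.733% of all genes. Ring1B peaks of 627 bases in shNup153 #4 and 799 bases in shCtrl also lay over that start, and the Nup153 DamID region lay at mm9 chr15:76497055-76499555, overlapping the 3′ part of the gene. Ppp1r16a starts 1732 bp away on the other strand, with 12.0 and 11.4 FPKM in shNup153 #2 and #4 and 12.7 FPKM in shCtrl, so that peaks here can belong to either gene.

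Forkhead genes also lie in clusters, and neighbours in a cluster each had a Cbx7 peak of their own without sharing all other features. On mouse chromosome 8, Foxc2 starts 31.8 kb from Foxf1 and 11.5 kb from Foxl1, and all 3 had Cbx7 in shCtrl while the NeuP Ring1B list held Foxc2 alone. On chromosome 13, Foxf2 starts 67.6 kb from Foxq1 and 181 kb from Foxc1. In this cluster Cbx7 lay at all 3 genes, Ring1B in NeuP at Foxq1 alone and Ring1B in shCtrl at Foxf2 and Foxc1. Their RNA differed too, since Foxq1 had no read in NeuP while Foxc1 had 103 and 170 reads there. On chromosome 4, Foxd2 and Foxe3 start 17.1 kb apart and had the same Ring1B and Cbx7 pattern.

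In the median, forkhead promoter windows held more CpG dinucleotides than all windows, whether or not their genes had Polycomb peaks in shCtrl. Some windows of either kind held few, such as Foxi2 (Cbx7 in shCtrl) with 5 and Foxn1 (neither) with 8. The 33 member windows held a median of 22 CpG, against 7 in all 32851 windows of the table. The median was 19 in the 20 windows of 16 members with a Cbx7 or Ring1B peak in shCtrl and 22 in the 13 windows of 12 members with neither. Each window took the peak state of its gene, also at starts other than the one used for peaks. Foxp1, for example, added 3 windows with 44, 5 and 13 CpG to the first set. The order of the 2 medians is therefore not read as a difference. The 2 ends of the range are printed above, Foxk2 with 59 CpG and Foxr2 with 3. The forkhead motif TGTTTAC, searched on both strands, was in 1 member window, that of Foxa1 (3.03% of member windows, 3.65% of all windows). The octamer core ATGCAAA, also searched on both strands, was in 1 window, of Foxp1 (3.03%, against 4.63% of all windows). The DamID target GATC was in 13 member windows (39.4%), against 48.0% of all windows.

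**Figure D5:**
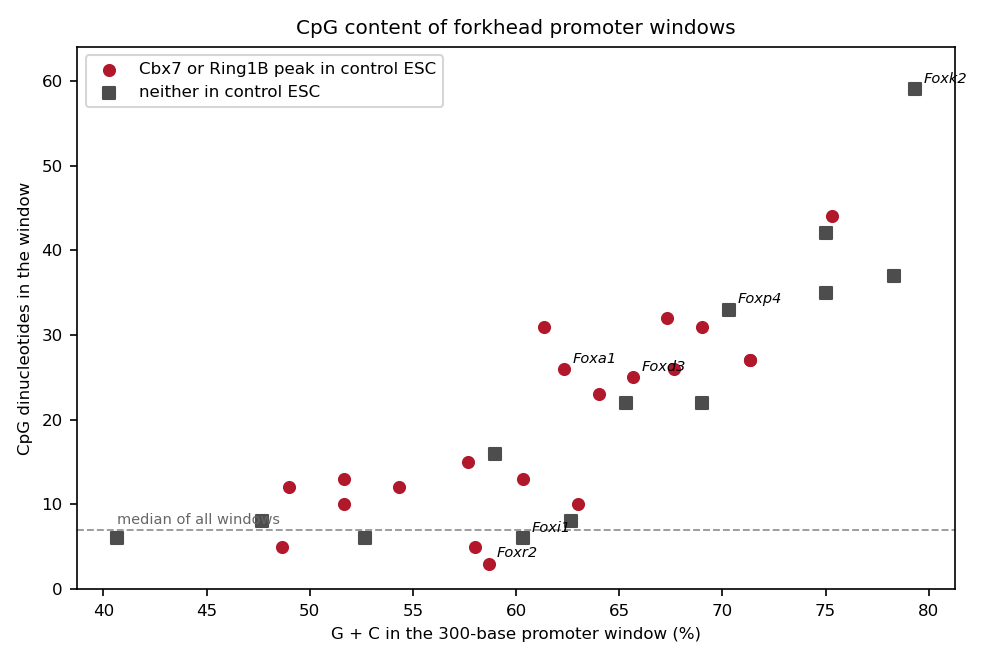
CpG dinucleotides against G + C content in percent for the 33 promoter windows of 28 forkhead genes. Windows are split by whether their gene had a Cbx7 or Ring1B peak in shCtrl ESC. The dashed line is the median of all windows, 7. Both kinds of window span low and high CpG counts, with Foxk2 highest at 59 and Foxr2 lowest at 3.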

How the data were processed

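The series holds 5 RNA-seq, 8 ChIP-seq and 6 DamID samples. The deposited expression table gives FPKM per RefSeq transcript, computed by the authors; reads were processed with CASAVA 1.8.2, STAR 2.2.0c and HOMER 4.6, per the submitters' processing notes, on mm9, and were strand-specific, per the labels. The strand setting used in counting is not stated by those sources. Per the file headers, ChIP peaks were called with HOMER findPeaks against an IgG library, in factor style for Oct4 and histone style for Ring1B and Cbx7. The way the DamID replicates and GFP control were joined into each list is not stated either.

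Genes with at least 1 FPKM in at least 1 library (13750) were tested on log2(FPKM + 1) with limma 3.58.1 (R 4.3.3, trend, 3 groups, two-sided), with Benjamini-Hochberg adjustment over all of them. The 2 hairpins were taken as replicates; nothing says that replicates were separate cultures, so p-values may measure technical spread. Whole reads were recovered from the FPKM steps, and 3 reads over a group set the detection floor. Peaks were assigned within 2 kb of the deposited transcript start. Genes were named if called, if among the 3 largest changes in either direction of a comparison, if they had a Nup153 or Oct4 region or a Ring1B difference between NeuP and shCtrl, or if linked to pluripotency; others are named to complete a set, and 1 member's own values are not reported here. Members and lists were chosen with earlier results of these data known.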

Additional observations from a re-analysis of the deposited data

How the results depend on the processing

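The 5 calls in NeuP became 8 without the filter on low values, 9 with a pseudocount of 0.1, 9 with voom on the recovered reads and 13 with voom on genes of at least 10 reads in 1 library, a setting chosen after seeing the data. There were 4 with a pseudocount of 5, without Foxi3, 5 under quantile normalization, with Foxc1 in place of Foxi3, and 5 with only NeuP and shCtrl in the fit. Leaving out 1 library at a time gave 5 to 17 calls: 16 without NeuP replicate 1, 17 without NeuP replicate 2, and 5 without either hairpin library, of which 3 were shared with the main result. Dropping a NeuP library removes the spread between the NeuP libraries. The 8 calls without the filter included Foxe1 and Foxi1, which had at most 2 reads and at most 1 read in any library. The knockdown count was 0 under each of these settings; without the filter 55 genes of the whole table were higher and 175 lower, none a forkhead gene. The Nup153 DamID count of 5 became 3 within 1 kb, 1 by region centre and 1 among regions wider than the list median, and the 26 Ring1B members of shNup153 #2 became 16 when both hairpins were required.

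Over the 23 tested members, 437 of 506 alternative values kept sign and side of the threshold, 41 newly passed it, 10 no longer did and 18 changed sign. Leaving out NeuP replicate 1 or NeuP replicate 2, the NeuP change was 1.48 or -2.15 for Foxm1, -1.22 or 0.48 for Foxj1, -1.64 or 0.0042 for Foxo3, 0.26 or -0.69 for Foxk2, 0.090 or -0.71 for Foxn2, -0.80 or 0.096 for Foxn3 and -0.34 or 0.13 for Foxp1. Leaving out shNup153 replicate 1 (#2) or replicate 2 (#4), the knockdown change was -0.020 or 0.060 for Foxj2, -0.0010 or 0.19 for Foxk1, -0.032 or 0.35 for Foxo6 and -0.081 or 0.069 for Foxp1. Under quantile normalization the knockdown sign also changed for Foxc1 (-0.038), Foxj2 (-0.13), Foxk1 (-0.084), Foxo3 (-0.017), Foxo6 (-0.056), Foxr1 (-0.040) and Foxr2 (-0.014). Quantile normalization moved the median of all genes to -0.06 in NeuP and 0.00 in the knockdown; otherwise the cause was not tested. The width setting gave no value for the Oct4 ChIP lists, whose peaks have a fixed width. No paired analysis was possible because shCtrl has 1 RNA library and the DamID replicates have only joint lists. The 21 untested members were left out by the filter at 1 FPKM, and voom on genes of at least 10 reads tested 32 members. The lists without heights or replicates limit every peak comparison.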

Other observations

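Antisense or divergent transcripts start within 2 kb of several members and had levels of their own. Foxd2os, which starts 391 bp from Foxd2, had 0.357 and 0.43 FPKM in NeuP, 0.078 and 0.082 FPKM in shNup153 #2 and #4, and 0.027 FPKM in shCtrl. Foxd2 itself had 15 and 2 reads in NeuP and 2 reads in shCtrl. AA415398, 892 bp from Foxj3 on the other strand, had 1.87 and 1.52 FPKM in NeuP, 0.39 and 0.497 FPKM in shNup153 #2 and #4, and 0.104 FPKM in shCtrl. Fendrr, the long noncoding RNA beside Foxf1, had at most 0.054 FPKM in any library.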
